A study of Mus musculus with 12 samples.

Results

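Of the genes counted in this series, 43 were chosen for their part in JAK-STAT signalling, out of 22310 gene symbols. They were picked by symbol. They comprise 3 ligands, 15 cytokine receptor chains, the 4 Janus kinases, 5 STAT factors, 8 members of the SOCS family, 4 PIAS proteins, 3 phosphatases and the target kinase Pim1. All 43 were listed with at least 10 counts in total, and 42 of them were among the 13540 genes that passed the filter on low counts. The exception was Stat4, with 32 reads over all libraries. The libraries came from satellite cells, the stem cells of skeletal muscle, of C57BL/6 mice. Hindlimb muscles had been injured with 50 µl of 1.2% BaCl2 at about 20 sites, and cells were taken 3 days later. Young wild type (3 to 4 months), old wild type (22 to 28 months), young Hoxa9 knock-out and old Hoxa9 knock-out mice of the same ages gave 3 libraries each, 12 in all, so every group carried the injury. Hoxa9 is a homeobox transcription factor, and the study's paper names this pathway downstream of it. The sources used here do not say which part of Hoxa9 was deleted or in which cells. They also do not say whether each library is a separate animal, and p-values then cover only the spread of these libraries, which may be technical.

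In this pathway a cytokine binds receptor chains on the cell surface, which brings the kinases bound to their inner ends together. The kinases phosphorylate the receptor and then STAT proteins, which pair, enter the nucleus and switch on target genes. Socs3, Socs1, Cish and Pim1 are classical STAT targets, and the SOCS proteins in turn block the receptor or kinase, so their transcripts are often read as a trace of recent signalling. In muscle, cytokines of the interleukin 6 and LIF family signal through the shared chain encoded by Il6st, and Stat3 is known to act in satellite cell proliferation and differentiation after injury.

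STAT dimers bind the letters TTCNNNGAA, where N is any base, and the windows of 250 bases before to 50 after the RefSeq gene starts (GRCm38.p6) show where such letters lie near members described below. RefSeq windows matched 34 of the 43 members, some with several starts, 43 windows in all. The letters occurred in 4 of these 43 windows (9.30%) and in 8.30% of all 32851 windows, so the members' share was close to that of genes at large. The stricter TTCCNGGAA was present in 2 of the 43 windows and in 1.15% of all windows, and TGATTTAT, a Hox and Pbx motif searched on both strands, in 0 of 43 and 0.977%. The windows of Socs3 (chr11:117969317-117969616, minus strand), Cish (chr9:107296409-107296708, plus strand) and Ifnar2 (chr16:91372533-91372832, plus strand) are shown, and the levels of these genes are followed below. They run 5′ to 3′ with TTCNNNGAA in capitals.
Socs3: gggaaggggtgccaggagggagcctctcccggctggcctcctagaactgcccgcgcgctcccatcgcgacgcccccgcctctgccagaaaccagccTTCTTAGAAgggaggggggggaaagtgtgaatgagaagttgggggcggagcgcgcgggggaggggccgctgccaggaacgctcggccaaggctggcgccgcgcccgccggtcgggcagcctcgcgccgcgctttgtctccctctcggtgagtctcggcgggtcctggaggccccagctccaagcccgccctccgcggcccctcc
Cish: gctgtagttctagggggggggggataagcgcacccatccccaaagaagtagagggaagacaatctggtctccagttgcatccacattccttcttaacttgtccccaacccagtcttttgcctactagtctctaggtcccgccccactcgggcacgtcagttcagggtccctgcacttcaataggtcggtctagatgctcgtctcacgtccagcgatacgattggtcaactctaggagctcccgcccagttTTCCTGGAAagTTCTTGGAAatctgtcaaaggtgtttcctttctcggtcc
Ifnar2: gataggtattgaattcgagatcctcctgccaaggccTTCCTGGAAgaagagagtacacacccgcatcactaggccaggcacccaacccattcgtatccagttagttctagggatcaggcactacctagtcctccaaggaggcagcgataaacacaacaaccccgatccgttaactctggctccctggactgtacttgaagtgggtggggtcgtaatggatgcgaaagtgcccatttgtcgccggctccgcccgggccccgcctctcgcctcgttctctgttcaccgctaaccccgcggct
Cish held 2 matches, starting at bases 1 and 12 of the transcript, while the match of Socs3 began 154 bases and that of Ifnar2 214 bases before the start. The other window with a match, that of Ifnar1, is not shown, and its match began 5 bases before the start. A match is a run of letters and not a measured binding site.

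The libraries held 4193433 to 20337015 gene reads, of which the members took 0.417% to 0.786%. Levels are given as CPM, a count divided by the library size after scaling by trimmed-mean factors. Hoxa9 stood at 7.96 to 22.5 CPM in the 6 wild-type and 4.55 to 7.21 CPM in the 6 knockout libraries. Its log2 difference between genotypes was -1.63 ± 0.25 (SE, adjusted p = 0.00235) in old and -0.67 ± 0.24 (SE, adjusted p = 0.0671) in young mice, and its transcript was counted in each knockout library. Base composition also set the genotypes apart. Spearman's rho between a gene's relative level and its GC content was 0.23 to 0.47 in wild-type and -0.53 to -0.13 in knockout libraries, a description over genes that are not independent. Reads of Lars2 took 0.0258% to 0.110% of the gene reads in wild type and 0.484% to 25.0% in knockout. Satellite cell markers were present in each library (10 of 10 listed, summed level 5773 to 9219 CPM). Markers of macrophages (17 genes) summed to 35.3 to 68.7 CPM in young wild type, 202 to 231 in old wild type, 31.6 to 234 in young knockout and 28.3 to 116 in old knockout. Fibroblast markers (11 genes) summed to 9754 to 11955 CPM in young wild type, 5388 to 6526 in old wild type, 6438 to 8071 in young knockout and 6334 to 10321 in old knockout. Tendon markers (8 genes) summed to 40.2 to 194 CPM in wild type and 113 to 1201 in knockout. Choroid plexus markers (9 genes) summed to 111 to 6075 CPM in wild type and 10.1 to 26.6 in knockout. Ddx3y, a Y-linked gene, stood at 125 and 151 CPM in old knockout replicates 2 and 3 and at 0.00 to 5.11 CPM in the 10 others, so the old knockout group mixes libraries that differ in this sign of sex. In bulk libraries, fewer cells of a type and less RNA per cell cannot be told apart.

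Per kilobase of the longest annotated transcript, Socs3 and Stat3 had the highest mean levels of the members over the 12 libraries. Socs3, the inhibitor of gp130-type receptors, stood at 142 CPM per kb and Stat3 at 139. The order differed between groups: in old wild type Stat3 stood at 114, Csf1 at 96.8 and Socs3 at 74.7 CPM per kb. Pim1, a STAT-induced survival kinase, followed at 89.3, Il6st at 78.6, Jak1 at 68.6 and Csf1, the macrophage growth factor, at 68.4 CPM per kb. Among kinases the order was Jak1, Jak2 (27.0 CPM per kb), Tyk2 (7.03) and Jak3 (0.744), the kinase typical of lymphocytes. Among STATs Stat3 was followed by Stat5b (15.8), Stat5a (14.0) and Stat6 (12.3 CPM per kb), whose order did not hold in every group, and Stat4 stood at 0.0789. The receptor Il6ra, which binds interleukin 6 itself, stood at 1.34 CPM per kb, far below the shared chain Il6st. Ptpn6, a phosphatase of blood cells, stood at 0.540 and had as few as 3 reads in a library. Stat3 and Stat5a share 72 exon bases on opposite strands, Jak3 shares 404 exon bases with Insl3, and Il11ra1 has a near-identical copy in the genome, so the values of Stat5a, Jak3 and Il11ra1 are uncertain where counting could split or mix reads.

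**Figure D1:**
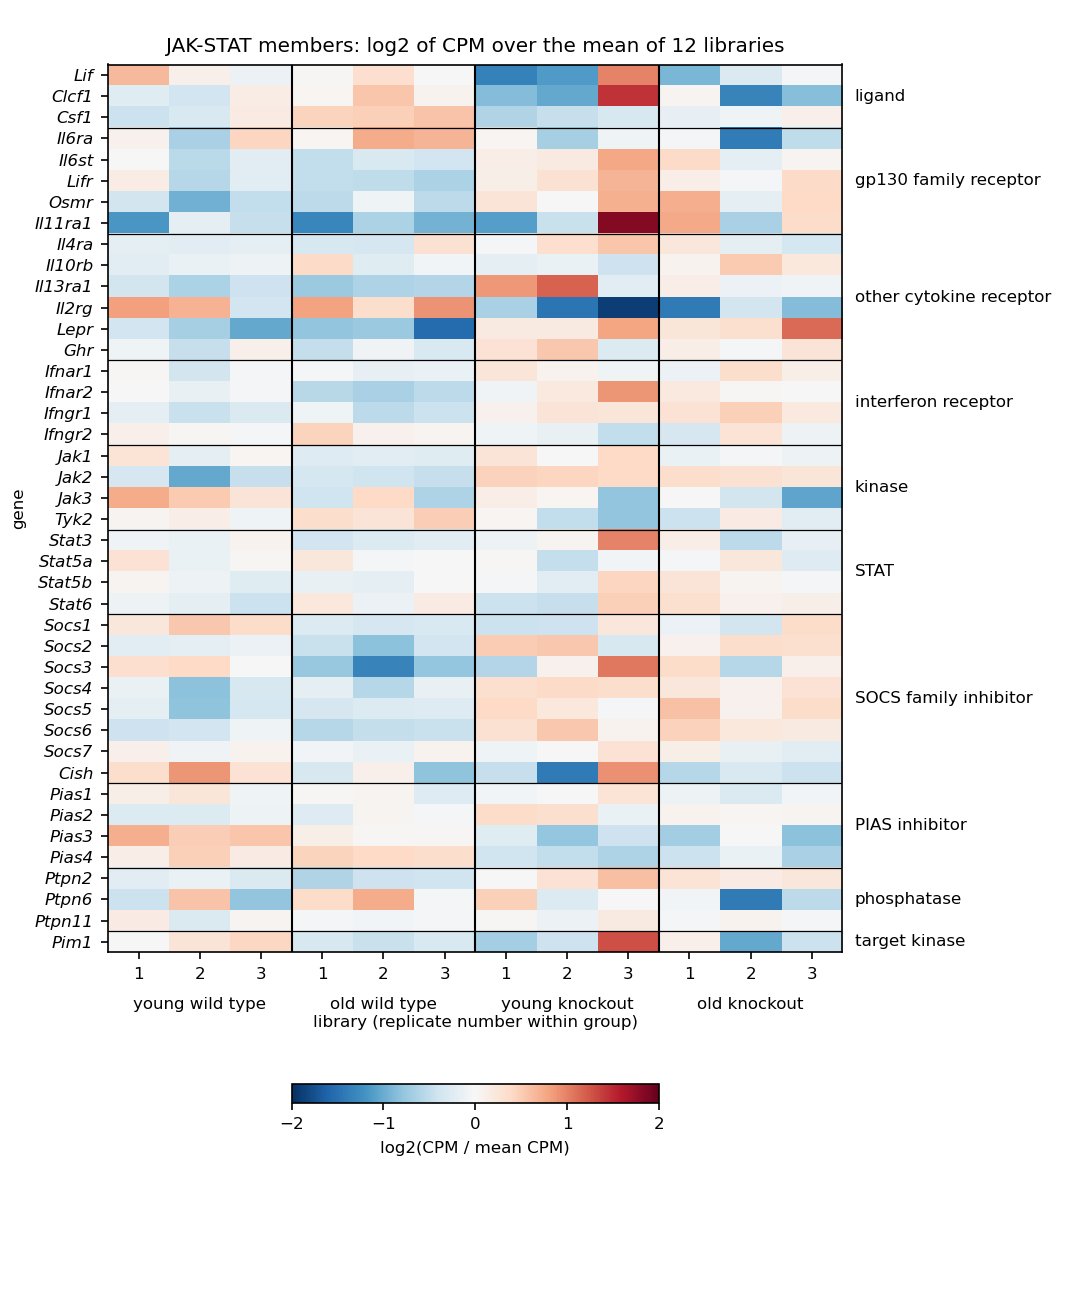
Each cell is the log2 of a member's CPM over its mean in the 12 libraries, with 42 members grouped by role in rows and libraries in columns. Young knockout replicate 3 has the highest level of 18 members, among them Stat3, Socs3, Clcf1, Il11ra1 and Pim1.

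One library stood apart in this pathway. Young knockout replicate 3, also the library with the fewest gene reads (4193433), had the highest level of 18 of the 42 tested members (42.9%), against 16.8% of all tested genes, and the largest member share of reads, 0.786%. Socs3 stood at 756 CPM there against 243 and 384 in the other young knockout libraries, and no other of the 12 libraries exceeded 482. Pim1 stood at 590 CPM there against 151 and 180, and Stat3 at 1669 against 787 and 874. Some ligands and receptors of the gp130 family were among the 18. Clcf1, a ligand of the ciliary neurotrophic factor receptor, stood at 202 CPM against 40.8 and 36.8, and Lif, leukaemia inhibitory factor, at 28.1 against 5.55 and 6.42. Il11ra1, the interleukin 11 receptor chain, stood at 38.0 CPM against 4.97 and 7.83, and Il6st at 1166 against 747 and 773, whereas Il6ra stood at 10.9 against 11.9 and 7.32. The SOCS family member Cish stood at 9.69 CPM against 3.73 and 1.93. Among the 3 young knockout libraries it was the highest for 22 members (52.4%, against 37.2% of all tested genes) and the lowest for 14 (33.3%, against 40.6%). Of those 14, Il13ra1 stood at 95.2 against 200 and 248 CPM and Socs2 at 60.1 against 107 and 109 CPM. In this library satellite cell markers summed to 9219 CPM, the highest of the 12, but the markers went opposite ways. Sdc4 stood at 2963 CPM against 599 and 870 in the other young knockout libraries, and Myod1 at 549 against 74.1 and 82.4. Cdh15 (683 CPM) and Itga7 (972 CPM) had their lowest level of the 12 libraries here. Macrophage markers summed to 38.3 CPM and neutrophil markers to 0.248 CPM, and the share of reads outside genes was the lowest, 32.2%. The part of these differences in the pathway values was not tested. Values without this library are given below where they change a call.

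**Figure D2:**
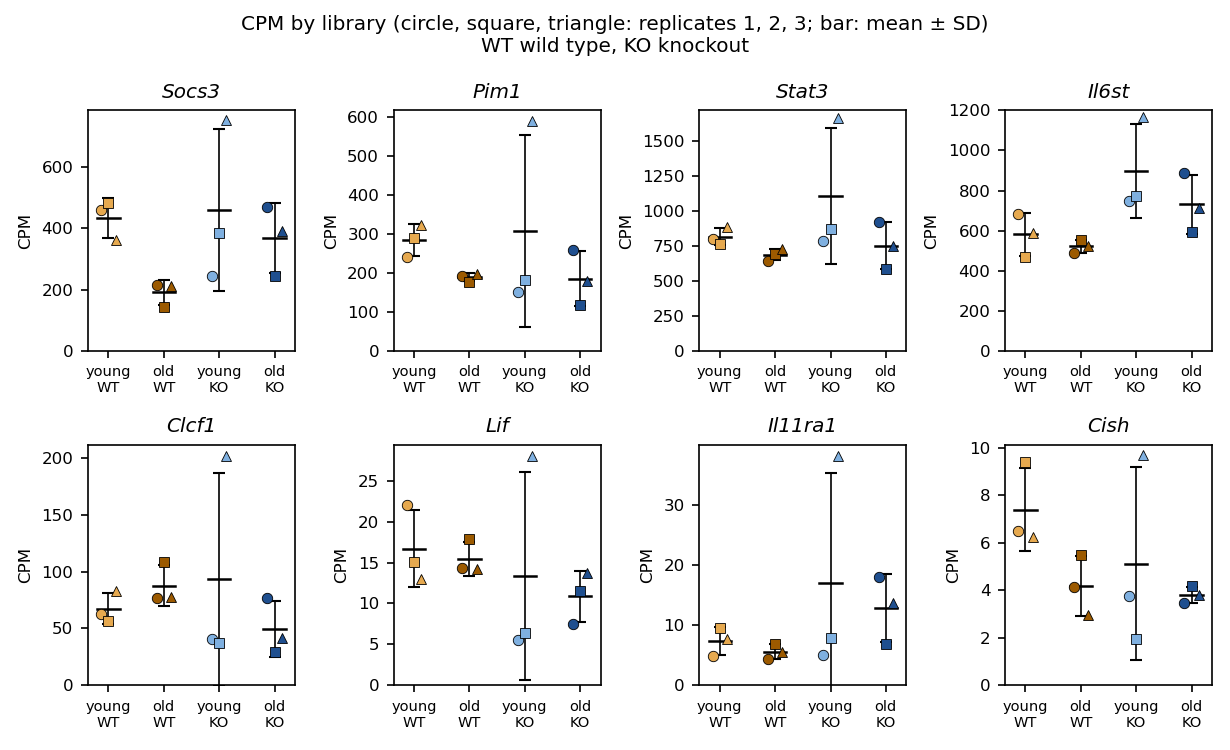
CPM in each library (circle, square and triangle for replicates 1, 2 and 3) with the mean and SD of 3 libraries per group, and SD bars cut at 0. The triangle of young knockout lies above all other points for each of the 8 genes shown, and Socs3 in the 3 old wild-type libraries lies below the 9 others.

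Ageing in wild type left 0 of 42 members past the adjusted threshold of 0.05 in edgeR's quasi-likelihood test, where 1.06% of all tested genes passed, 0.258% higher and 0.805% lower. At an unadjusted p under 0.05 there were 5 of 42 members, where 1918 of 13540 tested genes passed. DESeq2 called 2 members (4.76%), Csf1 and Socs3, where it called 3.41% of all genes. The members' median log2 fold change was -0.05, against 0.01 over all tested genes. Groups did not overlap for 2 members higher and 11 lower in old mice. Of all tested genes 26.8% did not overlap, 13.1% higher and 13.8% lower.

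Among ligands, Csf1 stood in young wild type at 212, 231 and 319, in old wild type at 390, 398 and 425, in young knockout at 188, 207 and 228 and in old knockout at 255, 268 and 306 CPM. The 3 old wild-type libraries lay above all 9 others. The change with age in wild type was 0.67 ± 0.16 (SE, adjusted p = 0.059), past the threshold in 7 of 22 alternative settings, in which the adjusted p ran from 0.00317 to 0.232. The summed macrophage markers, 202 to 231 CPM in these libraries against 35.3 to 68.7 in young wild type, moved the same way (0 of 16 tested passed, median 2.12). In young knockout replicate 1 these markers summed to 234 CPM, with Csf1 at 188 CPM. Their part in the level of Csf1 was not tested. The other ligands had overlapping groups: Lif ran from 13 to 22.1 CPM in young and 14.2 to 17.9 CPM in old wild type, and Clcf1 from 56.8 to 82.7 and 76.4 to 109 CPM.

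In the SOCS family of inhibitors, 5 of 8 members had old wild-type levels below all young wild-type levels, where 13.8% of all tested genes did so, and none passed the threshold. In the same comparison 4 of 11 fibroblast markers fell past the threshold (median -0.74). Pericyte markers (10 genes) summed to 5847 to 6729 CPM in young and 5052 to 5252 in old wild type (1 fell past it, median -0.49). Des, Notch3 and Acta2 had the highest levels in that list, with young means of 2349, 1968 and 1210 CPM and old means of 2150, 1402 and 1088. Mean Rgs5 went from 238 to 47.2 CPM, Pdgfrb from 131 to 45.9, Abcc9 from 87.4 to 28.9 and Kcnj8 from 24.6 to 3.79. Myh11 alone had a higher mean in old wild type, 161 against 103 CPM. The part of these markers in the SOCS values was not tested. Socs3 stood in young wild type at 461, 482 and 361 and in old wild type at 216, 144 and 212 CPM. The groups did not overlap, and the log2 fold change was -1.19 ± 0.37 (SE, adjusted p = 0.166). Over 22 alternative settings the adjusted p ran from 0.00127 to 0.502, and it passed in 3: with DESeq2 (0.0177), with only the wild-type libraries fitted (0.00127) and without young knockout replicate 3 (0.0248). Socs1 stood in young wild type at 38.8, 48.1 and 42.9 and in old wild type at 27.5, 26.4 and 26.9 CPM, a log2 difference of -0.68 ± 0.20 (SE, adjusted p = 0.127). Cish stood in young wild type at 6.50, 9.41 and 6.25 and in old wild type at 4.12, 5.47 and 2.93 CPM, -0.82 ± 0.43 (SE, adjusted p = 0.426). Socs2 stood in young wild type at 64.7, 65.9 and 68.8 and in old wild type at 55.0, 42.4 and 57.4 CPM, -0.36 ± 0.19 (SE, adjusted p = 0.432). Socs1 and Socs3, which act on the kinases, and Cish and Socs2, which act on growth hormone and STAT5-type receptors, had no overlap between the ages, nor did Socs6, whereas Socs4, Socs5 and Socs7 overlapped. The STAT target Pim1 ran from 240 to 321 CPM in young and from 177 to 196 CPM in old wild type, -0.59 ± 0.46 (SE, adjusted p = 0.635). Stat3 itself ran from 764 to 884 CPM in young and 645 to 726 CPM in old wild type, -0.25 ± 0.25 (SE, adjusted p = 0.722). Interferon receptor chain Ifnar2 stood at 56.6 to 63.1 CPM in young and 40.0 to 43.7 CPM in old wild type, -0.52 ± 0.19 (SE, adjusted p = 0.221), and the STAT inhibitor Pias3 at 31.8 to 37.6 and 22.9 to 24.5 CPM, -0.55 ± 0.20 (SE, adjusted p = 0.21). With only the wild-type libraries in the fit, Socs1, Socs3, Ifnar2, Pias3 and Pim1 fell and Csf1 rose past the threshold, 6 members (14.3%), where 6.77% of all genes in that fit passed. Without young knockout replicate 3, which belongs to neither group but shares the estimate of spread, Socs1 (-0.67, adjusted p = 0.0361), Socs3, Ifnar2 (-0.51, adjusted p = 0.0363) and Csf1 (0.68, adjusted p = 0.0251) passed, 4 members (9.52%), where 3.25% of all genes did.

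The knockout was set against wild type at each age to ask which pathway transcripts differ with Hoxa9 loss. In old mice 12 of 42 members changed (28.6%), 9 higher and 3 lower, where 16.7% of all tested genes changed, 9.52% higher and 7.21% lower. In young mice 14 changed (33.3%), 11 higher and 3 lower, where 20.9% of all tested genes changed, 10.9% higher and 10% lower. Groups did not overlap for 15 members higher and 8 lower in old mice, where 42.0% of all tested genes did not (21.6% higher and 20.4% lower). In young mice they did not overlap for 11 higher and 5 lower, where 35.7% of all tested genes did not (16% higher and 19.6% lower). No library is shared between these 2 comparisons, and 8 members changed in the same direction at both ages, 66.7% of the old and 57.1% of the young list. Over all tested genes 1284 did so, 56.7% of the old and 45.4% of the young list. The 8 members were Jak2, Socs5, Socs6, Lepr, Ifngr1 and Ptpn2 higher and Il2rg and Pias4 lower. The members' median was 0.14 in old and 0.19 in young mice, against -0.01 and -0.02 over all tested genes, and in young mice it was 0.03 without young knockout replicate 3, where 18 members passed (42.9%), 11 higher and 7 lower, beside 22.3% of all genes. Leaving out that library also raised the count in old mice to 18, where all 12 libraries otherwise share one estimate of spread, with Socs3, Il6ra, Il6st, Osmr, Il13ra1 and Il11ra1 added, where 22.3% of all genes passed. Leaving out old knockout replicates 2 and 3, the libraries with the highest Ddx3y levels, leaves 1 library in the old knockout group. The members' median in old mice was then 0.22, against -0.07 over all genes. In old mice 0 members passed without old wild type replicate 2 and old knockout replicate 3, which had the most reads outside genes. In that fit, which leaves 2 libraries in each old group, 0.0217% of all genes passed. Scaling by library size alone shifts the median of all genes to -0.26 in old and -0.10 in young mice. With it 1 member was called higher and 5 lower in old mice (14.3%), where 16.1% of all genes passed, 359 higher and 1827 lower. In young mice 5 members were called higher and 4 lower (21.4%), where 15.8% of all genes passed, 865 higher and 1278 lower. The GC content of members called higher had a median of 44.4% in old and 42.8% in young mice. For the 3 members called lower at each age it was 54.4% and 54.8%, near the 52.9% and 53.0% of members not called. Members called higher thus lay at lower GC content, the direction in which the libraries of the genotypes differ. With offsets for GC content and length 6 members passed at each age, where 10.2% and 8.16% of all genes did, and 4 of them at both: Jak2, Socs5 and Ifngr1 higher and Il2rg lower. The others were Lepr and Ifnar2 in old mice and Il4ra and Pias3 in young mice.

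**Figure D3:**
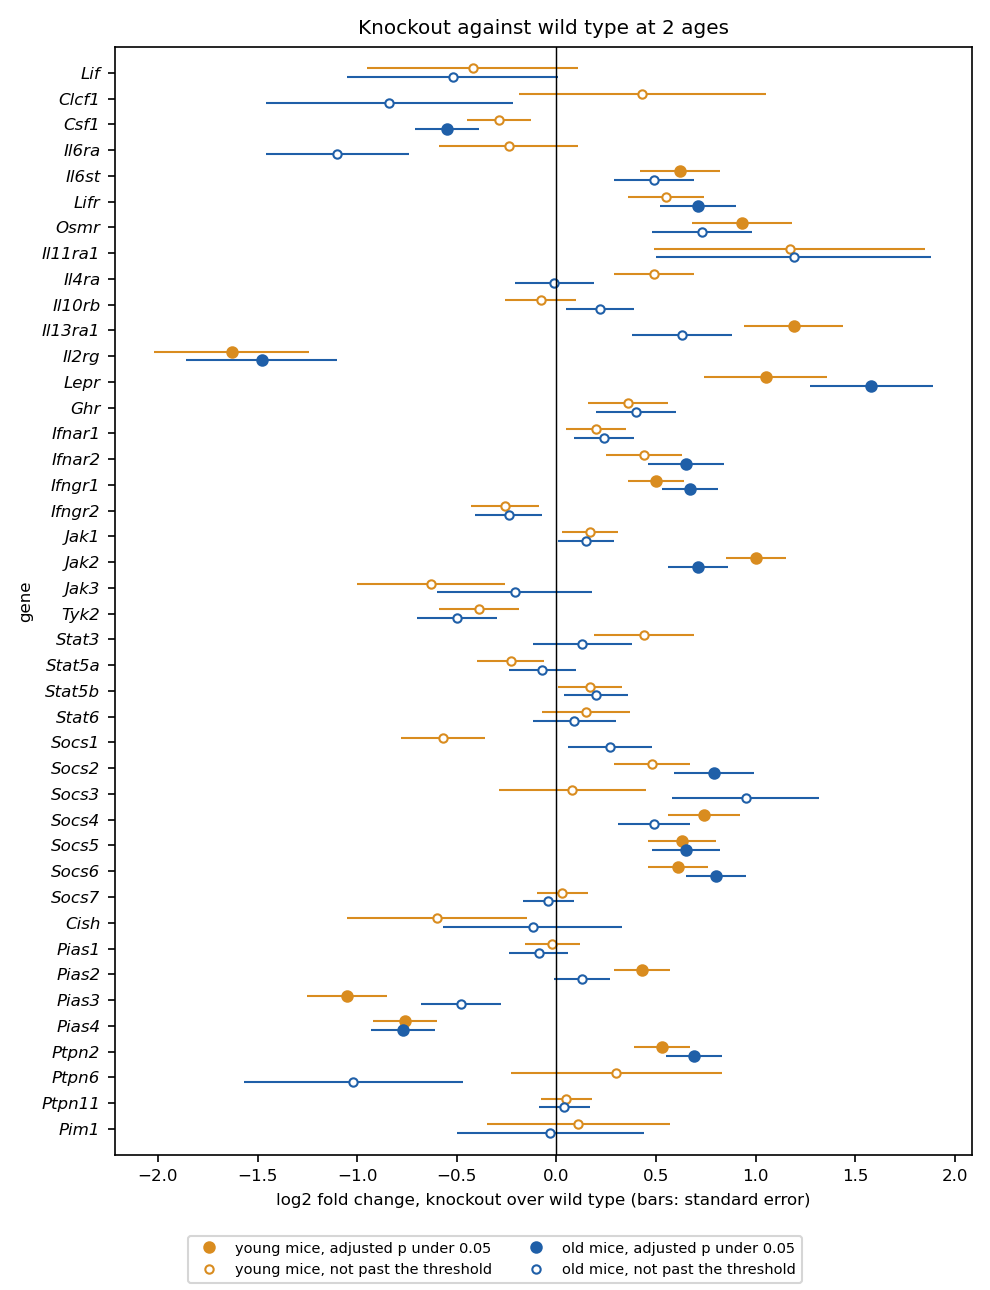
Points are log2 fold changes of knockout over wild type in young (orange) and old (blue) mice with standard errors, filled where the adjusted p is under 0.05. Jak2, Lepr, Ifngr1, Socs5, Socs6 and Ptpn2 lie to the right and Il2rg and Pias4 to the left with filled points at both ages.

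Among kinases, Jak2, which serves growth hormone, interferon gamma and gp130 receptors, was the member with the smallest p in young mice. Jak2 stood in young wild type at 108, 67.0 and 98.5, in old wild type at 106, 103 and 98.5, in young knockout at 186, 183 and 179 and in old knockout at 173, 168 and 160 CPM. All 6 knockout libraries lay above all 6 wild-type libraries. The log2 fold change was 0.71 ± 0.15 (SE, adjusted p = 0.00874) in old and 1.0 ± 0.15 (SE, adjusted p = 0.00116) in young mice. It was 0.47 (adjusted p = 0.0284) and 0.71 (adjusted p = 0.00596) with GC and length offsets. Jak1, the partner kinase of gp130 and interferon receptors, did not pass at either age, with means of 350 ± 56.3 in young wild type, 285 ± 5.05 in old wild type, 393 ± 54.3 in young knockout and 317 ± 12.2 in old knockout, in CPM (SD, n = 3). Its log2 differences were 0.15 ± 0.14 (SE, adjusted p = 0.481) in old and 0.17 ± 0.14 (SE, adjusted p = 0.418) in young mice. Tyk2 and Jak3 had values of -0.50 ± 0.20 (SE, adjusted p = 0.1) and -0.21 ± 0.39 (SE, adjusted p = 0.734) in old mice and -0.39 ± 0.20 (SE, adjusted p = 0.181) and -0.63 ± 0.37 (SE, adjusted p = 0.25) in young mice. None of the 4 tested STATs passed: Stat3 had 0.13 ± 0.25 (SE, adjusted p = 0.748) in old and 0.44 ± 0.25 (SE, adjusted p = 0.22) in young mice, the latter 0.07 without young knockout replicate 3. Stat5a, Stat5b and Stat6 ranged from -0.23 to 0.20 at both ages.

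**Figure D4:**
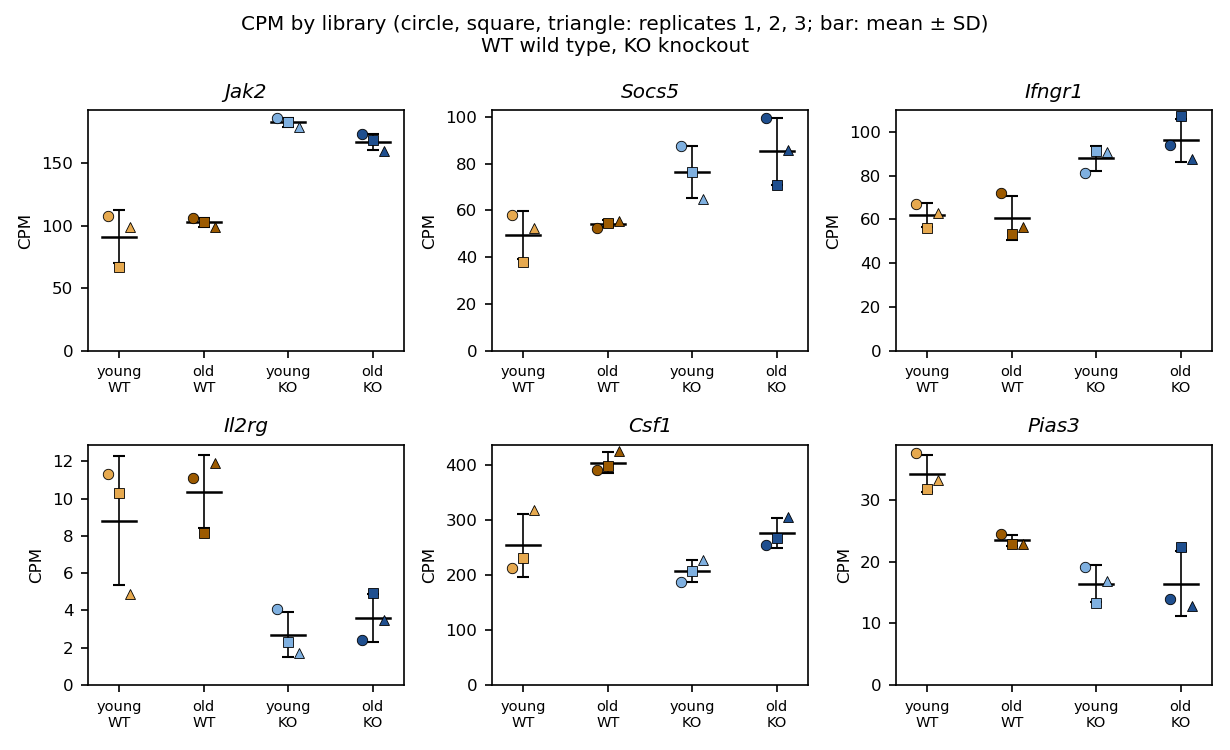
CPM in each library (circle, square and triangle for replicates 1, 2 and 3) with the mean and SD of 3 libraries per group. Jak2, Socs5 and Ifngr1 lie higher and Il2rg lower in all 6 knockout libraries than in their age-matched wild type, and Csf1 is highest in the 3 old wild-type libraries.

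Of the 5 receptor chains of the gp130 family, Lifr rose in old and Osmr and Il6st rose in young knockout. Lifr stood in young wild type at 113, 68.0 and 88.0, in old wild type at 71.8, 71.0 and 65.2, in young knockout at 110, 126 and 163 and in old knockout at 111, 98.8 and 132 CPM. The log2 fold change of Lifr, the LIF receptor, was 0.71 ± 0.19 (SE, adjusted p = 0.0233) in old mice, where the groups did not overlap, and 0.55 ± 0.19 (SE, adjusted p = 0.0513) in young mice, where young wild-type replicate 1 overlapped the knockout range. Osmr stood in young wild type at 188, 124 and 171, in old wild type at 167, 227 and 168, in young knockout at 287, 242 and 393 and in old knockout at 399, 212 and 318 CPM. Osmr, the oncostatin M receptor, changed by 0.93 ± 0.25 (SE, adjusted p = 0.019) in young mice, and had 0.73 ± 0.25 (SE, adjusted p = 0.0607) in old mice. The shared chain Il6st had means of 581 ± 107 in young wild type, 521 ± 33.7 in old wild type, 895 ± 235 in young knockout and 731 ± 146 in old knockout, in CPM (SD, n = 3). Its difference was 0.62 ± 0.20 (SE, adjusted p = 0.0432) in young and 0.49 ± 0.20 (SE, adjusted p = 0.111) in old mice, and in young mice 0.43 (adjusted p = 0.109) without young knockout replicate 3. Il6ra did not pass in old mice, with levels of 11.9 to 19.4 CPM in wild type and 4.42 to 11.3 CPM in knockout, -1.10 ± 0.36 (SE, adjusted p = 0.0518). With GC and length offsets Lifr (0.45 and 0.17), Osmr (0.57 and 0.73) and Il6st (0.39 and 0.43, old and young) kept their sign and none passed.

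Among the other cytokine receptor chains, Il2rg fell and Lepr rose at both ages, and Il13ra1 rose in young mice. Il2rg stood in young wild type at 11.3, 10.3 and 4.89, in old wild type at 11.1, 8.15 and 11.9, in young knockout at 4.06, 2.31 and 1.74 and in old knockout at 2.40, 4.95 and 3.49 CPM. Il2rg, the common gamma chain of interleukin 2, 4 and 7 receptors on leukocytes, changed by -1.48 ± 0.38 (SE, adjusted p = 0.0204) in old and -1.63 ± 0.39 (SE, adjusted p = 0.0109) in young mice. The values were -1.49 (adjusted p = 0.0304) and -1.55 (adjusted p = 0.0309) with GC and length offsets. Knockout and wild-type libraries of the same age did not overlap, although young wild-type replicate 3, at 4.89 CPM, lay below old knockout replicate 2, at 4.95. Macrophage markers were lower in knockout in old mice (5 of 16 tested, median -2.31). In young mice 0 of 16 passed (median 0.86). Their young sums were 234, 31.6 and 38.3 CPM in knockout and 35.3 to 68.7 in wild type. The 10 lymphocyte markers summed to 1.97 to 7.45 CPM in old wild type and 0.872 to 1.41 in old knockout. In young mice the lymphocyte sums were 1.16 to 2.62 CPM in wild type and 1.03 to 1.58 in knockout. The part of these markers in the level of Il2rg was not tested. Lepr stood in young wild type at 6.50, 5.40 and 4.17, in old wild type at 4.92, 5.07 and 2.93, in young knockout at 9.62, 9.63 and 14.7 and in old knockout at 10.1, 10.6 and 18.6 CPM. Lepr, the leptin receptor, was higher by 1.58 ± 0.31 (SE, adjusted p = 0.00697) in old and 1.05 ± 0.31 (SE, adjusted p = 0.029) in young mice. The values were 1.20 (adjusted p = 0.0314) and 0.57 (adjusted p = 0.268) with GC and length offsets. Without young knockout replicate 3 the value in young mice was 0.88 (adjusted p = 0.0539). Tendon markers were higher in old knockout (6 of 8 passed, median 4.90), and in young knockout 1 was higher and 1 lower (median 1.93). Of fibroblast and pericyte markers 2 and 3 were higher and 0 lower in old knockout. In young knockout 1 fibroblast marker was higher and 2 lower, and 1 pericyte marker was lower. The part of these markers in the level of Lepr and the other receptors that rose was not tested. Il13ra1 stood in young wild type at 85.1, 70.5 and 82.7, in old wild type at 65.8, 71.4 and 73.3, in young knockout at 200, 248 and 95.2 and in old knockout at 120, 101 and 105 CPM. Il13ra1, which pairs with Il4ra to bind interleukin 4 and 13, was higher by 1.19 ± 0.25 (SE, adjusted p = 0.00684) in young mice and had 0.63 ± 0.25 (SE, adjusted p = 0.102) in old mice. Its young knockout libraries lay far apart, 95.2 in replicate 3 against 200 and 248 CPM, and without replicate 3 the difference was 1.53 (adjusted p = 5.09e-05). With GC and length offsets it was 0.71 (adjusted p = 0.0567). Il4ra, Ghr, the growth hormone receptor, and Il10rb did not pass at either age, with values from -0.08 to 0.49. In young mice Il4ra had 0.80 (adjusted p = 0.0291) with the offsets, and Ghr 0.58 (adjusted p = 0.0243) without young knockout replicate 3.

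Of the 4 interferon receptor chains, Ifngr1 rose at both ages and Ifnar2 in old mice. Ifngr1 stood in young wild type at 67.0, 56.0 and 62.7, in old wild type at 71.9, 53.2 and 56.7, in young knockout at 81.3, 91.4 and 90.9 and in old knockout at 93.9, 107 and 87.7 CPM. Ifngr1, the ligand-binding chain for interferon gamma, was higher by 0.67 ± 0.14 (SE, adjusted p = 0.00864) in old and 0.50 ± 0.14 (SE, adjusted p = 0.0225) in young mice. The values were 0.64 (adjusted p = 0.0129) and 0.54 (adjusted p = 0.0272) with GC and length offsets. Its partner Ifngr2 had -0.24 ± 0.17 (SE, adjusted p = 0.359) in old and -0.26 ± 0.17 (SE, adjusted p = 0.307) in young mice. Ifnar2 stood in young wild type at 63.1, 56.6 and 61.2, in old wild type at 42.6, 40.0 and 43.7, in young knockout at 59.9, 72.0 and 116 and in old knockout at 72.1, 63.6 and 62.2 CPM. Ifnar2, a chain of the type I interferon receptor, was higher by 0.65 ± 0.19 (SE, adjusted p = 0.0357) in old mice, and had 0.44 ± 0.19 (SE, adjusted p = 0.116) in young mice, which was 0.17 without young knockout replicate 3. The old wild-type libraries were the 3 lowest of the 12, so this comparison shares the low group with the ageing comparison above. Ifnar1 had 0.24 ± 0.15 (SE, adjusted p = 0.266) in old and 0.20 ± 0.15 (SE, adjusted p = 0.353) in young mice.

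Within the SOCS family, 4 of 8 members rose in knockout at one or both ages, where 14.7% of all tested genes did, and with GC and length offsets Socs5 alone of them passed. These were Socs4, Socs5 and Socs6, which act in part on growth factor receptors, and Socs2, an inhibitor of growth hormone signalling. Socs5 stood in young wild type at 57.9, 38.1 and 52.3, in old wild type at 52.6, 54.8 and 55.5, in young knockout at 87.7, 76.6 and 65.1 and in old knockout at 99.6, 70.7 and 85.7 CPM. Socs5 was higher by 0.65 ± 0.17 (SE, adjusted p = 0.0233) in old and 0.63 ± 0.17 (SE, adjusted p = 0.0212) in young mice. The values were 0.60 (adjusted p = 0.0304) and 0.57 (adjusted p = 0.0424) with GC and length offsets. Socs6 stood in young wild type at 30.1, 30.6 and 37.9, in old wild type at 26.9, 28.7 and 29.3, in young knockout at 49.7, 58.5 and 42.0 and in old knockout at 55.4, 46.3 and 45.6 CPM. Socs6 was higher by 0.80 ± 0.15 (SE, adjusted p = 0.0061) in old and 0.61 ± 0.15 (SE, adjusted p = 0.0133) in young mice, but with those offsets the values were 0.33 (adjusted p = 0.119) and -0.03 (adjusted p = 0.907). Socs4 stood in young wild type at 24.3, 15.1 and 21.3, in old wild type at 23.4, 18.1 and 24.0, in young knockout at 33.4, 34.9 and 34.0 and in old knockout at 31.2, 28.3 and 32.8 CPM. For Socs4, which has the lowest GC content of the members (38.5%), 0.74 ± 0.18 (SE, adjusted p = 0.0107) in young mice became 0.02 (adjusted p = 0.962) with the offsets, and the value in old mice was 0.49 ± 0.18 (SE, adjusted p = 0.0722). Socs2 stood in young wild type at 64.7, 65.9 and 68.8, in old wild type at 55.0, 42.4 and 57.4, in young knockout at 107, 109 and 60.1 and in old knockout at 79.3, 95.4 and 93.8 CPM. Socs2 changed in old mice, 0.79 ± 0.20 (SE, adjusted p = 0.0172), and had 0.48 ± 0.19 (SE, adjusted p = 0.0971) in young mice, or 0.74 (adjusted p = 0.00305) without young knockout replicate 3.

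The STAT targets Socs3, Socs1, Cish and Pim1 did not pass at either age in the edgeR fit with trimmed-mean scaling and all libraries. Socs3 stood in old knockout at 470, 245 and 391 CPM, and the 3 old knockout libraries lay above all 3 old wild-type libraries (144 to 216 CPM). The log2 difference was 0.95 ± 0.37 (SE, adjusted p = 0.104) in old and 0.08 ± 0.37 (SE, adjusted p = 0.898) in young mice. The value in old mice passed in 4 of 22 alternative settings: with DESeq2, with only the old libraries fitted, and without young knockout replicate 1 (0.95, adjusted p = 0.0429) or 3 (0.96, adjusted p = 0.016). Without young knockout replicate 3, Socs1 (-0.76, adjusted p = 0.00897), Cish (-1.28, adjusted p = 0.0197), Pim1 (-0.73, adjusted p = 0.0464) and the ligand Lif (-1.46, adjusted p = 0.00222) fell in young knockout, while Socs3 had -0.43 (adjusted p = 0.288). With that library the values of Socs1, Cish, Pim1 and Lif were, in this order, -0.57 ± 0.21 (SE, adjusted p = 0.0636), -0.60 ± 0.45 (SE, adjusted p = 0.359), 0.11 ± 0.46 (SE, adjusted p = 0.889) and -0.42 ± 0.53 (SE, adjusted p = 0.599). In young mice Cish, Pim1 and Lif passed only without that 1 library, and Socs1 passed in 2 of 22 alternative settings.

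Of the PIAS inhibitors and phosphatases, Pias4 fell and Ptpn2 rose at both ages, and in young mice Pias3 fell and Pias2 rose. Pias4 stood in young wild type at 32.1, 40.9 and 32.9, in old wild type at 39.9, 38.7 and 37.4, in young knockout at 22.1, 20.9 and 19.1 and in old knockout at 21.8, 26.7 and 18.6 CPM. Pias4, a SUMO ligase of this family, changed by -0.77 ± 0.16 (SE, adjusted p = 0.00744) in old and -0.76 ± 0.16 (SE, adjusted p = 0.00528) in young mice. The values were -0.44 (adjusted p = 0.0676) and -0.24 (adjusted p = 0.314) with GC and length offsets, its GC content being 60.8%. Pias3 stood in young wild type at 37.6, 31.8 and 33.2, in old wild type at 24.5, 22.9 and 22.9, in young knockout at 19.1, 13.3 and 16.9 and in old knockout at 14.0, 22.4 and 12.8 CPM. Pias3, which inhibits STAT3, changed by -1.05 ± 0.20 (SE, adjusted p = 0.00362) in young mice, where it passed in each of 22 alternative settings, and had -0.48 ± 0.20 (SE, adjusted p = 0.116) in old mice. Pias2 had means of 123 ± 8.64 in young wild type, 136 ± 15.4 in old wild type, 165 ± 29.1 in young knockout and 148 ± 1.71 in old knockout, in CPM (SD, n = 3). It passed in young mice, 0.43 ± 0.14 (SE, adjusted p = 0.0444), although the groups overlapped, and in 5 of 22 alternative settings. With GC and length offsets it was 0.10 (adjusted p = 0.619). The interaction tests whether an effect differs between ages. It was -0.30 ± 0.20 (SE, adjusted p = 0.645) for Pias2 and 0.57 ± 0.29 (SE, adjusted p = 0.554) for Pias3. Ptpn2 stood in young wild type at 65.6, 69.6 and 62.9, in old wild type at 50.3, 57.4 and 58.1, in young knockout at 77.3, 93.2 and 116 and in old knockout at 92.5, 85.9 and 89.2 CPM. Ptpn2, a phosphatase that removes phosphate from JAK1, JAK3 and STATs, was higher by 0.69 ± 0.14 (SE, adjusted p = 0.00821) in old and 0.53 ± 0.14 (SE, adjusted p = 0.019) in young mice. The values were 0.24 (adjusted p = 0.393) and 0.01 (adjusted p = 0.974) with the offsets. Ptpn11, the phosphatase SHP2, had means of 280 ± 44.5 in young wild type, 277 ± 4.41 in old wild type, 290 ± 30.4 in young knockout and 286 ± 11.7 in old knockout, in CPM (SD, n = 3). Its differences were 0.04 ± 0.13 (SE, adjusted p = 0.848) in old and 0.05 ± 0.13 (SE, adjusted p = 0.827) in young mice. Pias1 and Socs7 had values from -0.09 to 0.03 at both ages. The ligand Csf1 changed in old knockout by -0.55 ± 0.16 (SE, adjusted p = 0.0298), with -0.32 (adjusted p = 0.191) under the offsets. That comparison shares the high old wild-type libraries with the ageing comparison.

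**Figure D5:**
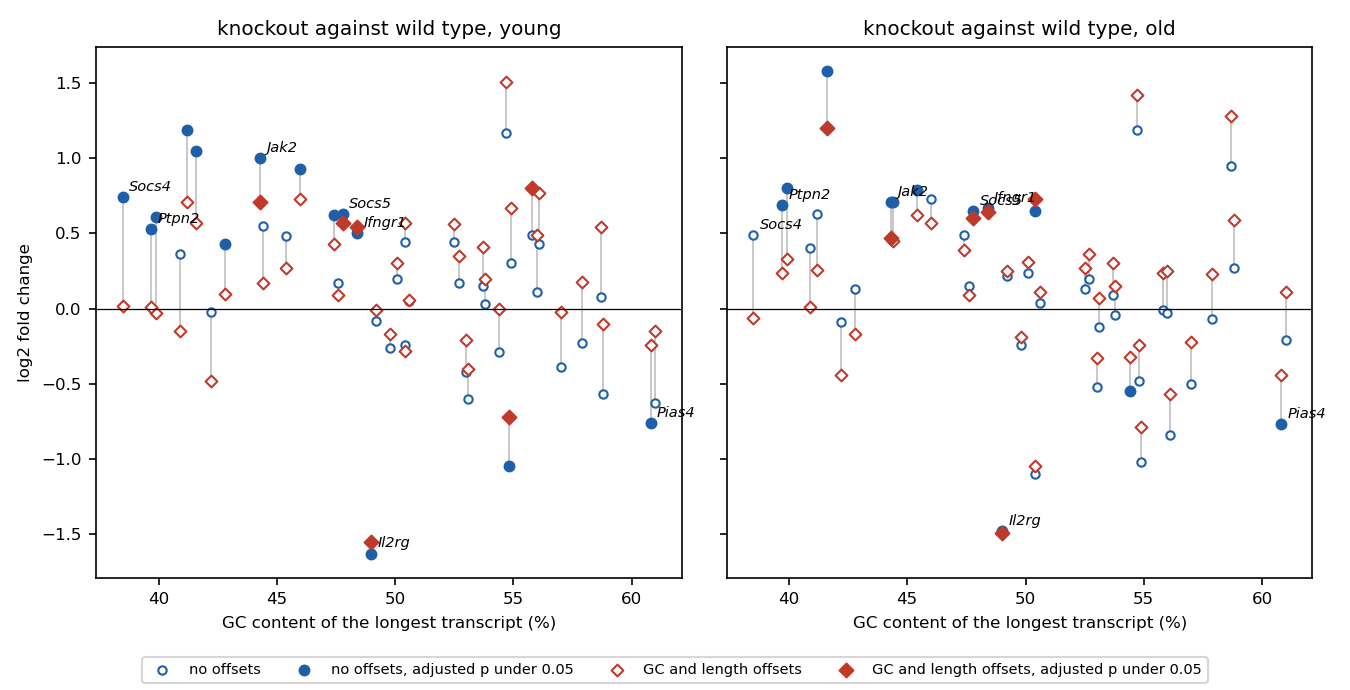
Each member is drawn at the GC content of its longest transcript against its log2 fold change of knockout over wild type, without (blue circles) and with (red diamonds) offsets for GC content and length, filled where the adjusted p is under 0.05. Socs4 and Ptpn2, filled without offsets in young mice, lie at 0.02 and 0.01 with them, and Jak2, Socs5, Ifngr1 and Il2rg stay filled at both ages.

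Ageing within knockout and the difference between the age effects called 0 of 42 members each, where 0.0148% of all tested genes passed in either (0.00739% higher and 0.00739% lower for the difference). For ageing in knockout the groups did not overlap for 2 members higher and 4 lower, where 11.6% of all tested genes did not, 6.37% higher and 5.22% lower. Unadjusted p under 0.05 was reached by 5 members and 1 member, where 1316 of 13540 tested genes reached it in each. DESeq2 also called 0 members in both, where it called 1.03% and 0.428% of all genes. In knockout Csf1 ran from 188 to 228 CPM in young and 255 to 306 CPM in old mice, 0.41 ± 0.16 (SE, adjusted p = 0.401), the same direction as in wild type. For Socs3 the age effect was -0.32 ± 0.37 (SE, adjusted p = 0.823) in knockout against -1.19 ± 0.37 (SE, adjusted p = 0.166) in wild type, and the difference between them, 0.87 ± 0.52 (SE, adjusted p = 0.624), did not pass. Socs1, the member with the unadjusted p under 0.05, had 0.84 ± 0.29 (SE, adjusted p = 0.398) for that difference. Without young knockout replicate 3, 0.525% of all genes passed for ageing in knockout and 0.823% for the difference between genotypes. In each, 1 of 42 members passed (2.38%), Il13ra1, with -1.06 (adjusted p = 0.014) and -0.88 (adjusted p = 0.0475) in this order. With all libraries these values were -0.74 ± 0.25 (SE, adjusted p = 0.349) and -0.56 ± 0.35 (SE, adjusted p = 0.635).

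Of 93 further pathway genes, 68 were tested. This list was chosen with earlier results of these data known, so its shares beside those of all genes are description only. In old wild type Il10, an anti-inflammatory cytokine of macrophages, rose from 0.838 ± 0.394 to 6.04 ± 0.593 CPM (SD, n = 3), 2.78 ± 0.52, adjusted p = 0.0253. Stat2, a factor of type I interferon signalling, and Ccnd3, cyclin D3, changed by -0.82 ± 0.15, adjusted p = 0.027, and -0.64 ± 0.13, adjusted p = 0.0334, so 3 of 68 changed (4.41%), where 1.06% of all tested genes did. Il6, the founding gp130 ligand, stood at 38.1 CPM in old and 96.0 in young wild type, -1.33 ± 0.35, adjusted p = 0.106. In old mice 6 were higher and 7 lower in knockout (19.1%). Among those higher were Spred1 (0.94 ± 0.18, adjusted p = 0.00606), an inhibitor of Ras signalling, Pik3r1 (0.89 ± 0.22, adjusted p = 0.0181) and Stam (0.48 ± 0.14, adjusted p = 0.0315). Among those lower were Il10 (5.57 to 6.71 CPM in wild type and 0.00 to 0.3 in knockout), Cdkn1a (-1.05 ± 0.20, adjusted p = 0.00629) and the JAK2 adaptor Sh2b1 (-0.71 ± 0.15, adjusted p = 0.00952). In young mice 3 were higher and 8 lower (16.2%). Among those higher were Spred1 (1.15 ± 0.18, adjusted p = 0.00146), Pik3ca (0.76 ± 0.13, adjusted p = 0.00197) and Stam (0.81 ± 0.14, adjusted p = 0.00197). Among those lower were Sh2b1 (-1.06 ± 0.16, adjusted p = 0.00104), Ccnd3 (-0.73 ± 0.13, adjusted p = 0.00266) and Stat2 (-0.76 ± 0.16, adjusted p = 0.00514). Over all tested genes 16.7% and 20.9% changed. The old wild-type libraries that held most Il10 had macrophage sums of 202 to 231 CPM. Young knockout replicate 1 had a sum of 234 CPM and Il10 at 0.829 CPM. The part of macrophages in the level of Il10 was not tested.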

How the data were processed

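RNA-seq libraries of mouse satellite cells, 12 in 4 groups of 3, were analysed from the deposited read counts per gene symbol, raw and whole. Libraries were made with a stranded total RNA kit after ribosomal RNA removal, per the labels' protocols, and TopHat, HTSeq, DESeq2 and the build mm9 are named in the submitters' processing notes. Versions and the strand setting of the counting are not given in the sources used here. Rows that name no gene held 32.2% to 70.8% of reads per library outside genes and 0.433% to 1.37% ambiguous, and were left out of library sizes. Gene reads per library ranged from 4193433 to 20337015, which limits the precision of members with few reads.

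Counts were fitted with edgeR 4.0.16 (R 4.3.3): filterByExpr, trimmed-mean scaling, 1 mean per group over all 12 libraries, robust quasi-likelihood tests of 5 comparisons, and Benjamini-Hochberg adjustment over all 13540 tested genes, at 0.05. Standard errors are the log2 fold change divided by the root of the F statistic. The scripts were tested on simulated data. Alternatives were DESeq2 1.42.0, other scaling, no filter on low counts, only the groups compared, a replicate block, libraries left out, and offsets for GC content and length (loess, span 0.3, GENCODE M21 longest transcripts on GRCm38, matched by symbol for 92.3% of 22310 symbols). Promoter windows are RefSeq's. Members were given by symbol, and the text gives the values of each member that passed, of the pathway's classical targets and of the kinases and STATs. The members and lists were chosen with earlier results of these data known.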

Additional observations from a re-analysis of the deposited data

How the results depend on the processing

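Of the 26 member values called between genotypes, 11 passed in every fit that left out 1 library, 11 passed with GC and length offsets and 15 did not, and 25 kept their direction in all 22 settings, the exception being Socs6 in young mice (-0.03 with those offsets). Jak2 and Pias3 in young mice passed in every setting run. For ageing in wild type, 0 members became 2 with DESeq2, 6 with only the groups compared and 1 with the offsets. Of all genes 3.41%, 6.77% and 1.36% passed in these fits. In old mice, 12 became 6 with library size alone (16.1% of all genes passed), when the members' median turned from 0.14 to -0.12. With the offsets 6 members passed (10.2% of all genes). The count was 0 without old wild type replicate 2 and old knockout replicate 3, which have the most reads outside genes. Without old knockout replicates 2 and 3, which have the highest Ddx3y levels, 1 library is left in that group and the members' median was 0.22. In young mice, 14 became 9 with library size alone (15.8% of all genes passed) and 6 with the offsets (8.16%). Leaving out young knockout replicate 2 and old knockout replicate 3, which have the largest Lars2 shares, was chosen after seeing the data. It gave 5 members in old and 8 in young mice, where 6.58% and 8.23% of all genes passed. With 1 library left out, the member count ran from 0 to 4 for ageing in wild type (0.0439% to 3.25% of all genes). It ran from 6 to 18 in old mice (5.52% to 22.3%) and 7 to 18 in young mice (10.5% to 22.3%). For ageing in knockout it was 0 to 1 (0.00% to 0.722%) and for the interaction 0 to 1 (0.00% to 0.823%). It was 6 or 7 in old mice without any 1 of the old wild type replicates or old knockout replicate 3 (5.52% to 8.98% of all genes). In young mice it was 7 and 9 without young wild type replicate 2 or 3 (10.5% and 14.7%). The cause of these changes was not tested. Same-numbered libraries deviated together in 3 of 12 pairs (correlations from -0.26 to 0.23), so the numbers were not taken to pair them. With a replicate block 1 member passed for ageing in wild type, 13 in old and 12 in young mice. Of all genes 0.583%, 13.1% and 17.7% passed in that fit. Over all genes, the 144 calls for ageing in wild type became 462 with DESeq2, 913 with only the groups compared, 83 with library size alone and 79 with the replicate block. The 2265 calls in old mice became 1377 with the offsets, 121 without old knockout replicates 2 and 3, and 3 without old wild type replicate 2 and old knockout replicate 3, and of 2186 with library size alone 359 were higher. The 2831 calls in young mice became 1105 with the offsets and 1536 with only the groups compared. For ageing in knockout, 2 calls became 139 with DESeq2 and 17 with the offsets, and for the interaction 2 became 58 with DESeq2. Depth limits Il2rg, Lepr, Cish, Jak3 and Ptpn6, the last with as few as 3 reads.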
